A study of Mus musculus with 8 samples.

Results

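Oxidative phosphorylation genes of the nucleus were followed in the cerebellum of mouse embryos with a conditional deletion of Pals1 and of embryos without it. Pals1, encoded by Mpp5, is a scaffold that holds the Crumbs proteins at the apical cell surface. Members were all genes whose symbol in the array's annotation begins with Nduf, Uqcr, Cox4 to Cox8 or Atp5, together with Sdha to Sdhd, Cyc1 and Cycs. The rule took 87 of the 16593 genes named on the array, carried by 110 probes. It used symbols only and no measured value. The conditional knockout animals (CKO) were Pals1 fl/fl;Cre+ and carried hGFAP-Cre, a transgene in which the human GFAP promoter drives Cre recombinase. The wild-type animals (WT) were Pals1 fl/fl;Cre-, so that both groups had the floxed allele on both chromosomes and differed in the transgene. Each group held 4 animals at embryonic day 17.5, with an Illumina BeadArray for each, hybridized with labelled cRNA made from total RNA of cerebellar tissue. Per the series design, Cre acts in most cerebellar neurons and glia, so cells outside these lineages keep Pals1 in the CKO tissue. In such bulk tissue, fewer cells of a type and less RNA per cell cannot be told apart.

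Oxidative phosphorylation is carried out in the inner mitochondrial membrane. Complex I (NADH dehydrogenase, the Nduf genes) and complex II (succinate dehydrogenase, the Sdh genes) pass electrons to ubiquinone, complex III (the Uqcr genes and Cyc1) passes them to cytochrome c, and complex IV (cytochrome c oxidase, the Cox genes) passes them to oxygen. Protons pumped by complexes I, III and IV return through complex V, the ATP synthase of the Atp5 genes. Neurons draw most of their ATP from this pathway, while dividing progenitors of the cerebellum are known for their high rate of glycolysis.

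The array levels below are log2 intensities after background correction and quantile normalization, and a gene is represented by its brightest probe. A gene was tested where its mean over the 8 arrays was above 6.26, the lower quartile of all probes, and called where its Benjamini-Hochberg adjusted p in a limma fit across all 12912 such genes was below 0.05. Median raw intensities of the arrays lay between 118.7 and 133.5. Mpp5 averaged 6.20 ± 0.0885 in CKO and 7.07 ± 0.035 in WT (SD, n = 4 each) and fell by 0.87 on the log2 scale (limma adjusted p = 8.43e-06), with no overlap between the groups. Some markers of cerebellar cells were well above the filter, with Zic1 at 12.65 in CKO and 13.29 in WT and Pcp2 at 12.23 in CKO and 11.64 in WT, although Atoh1 and Calb1 were below it in both groups. Xist, transcribed from the inactive X, read 6.60, 6.75, 6.69 and 6.77 on the CKO arrays and 10.10, 9.98, 6.83 and 9.71 on the WT arrays. Sex, as marked by Xist, was thus uneven between the groups, with WT.3 alone among the WT arrays as dim as the CKO arrays. A fit with the Xist level as a covariate therefore sets the CKO arrays largely against WT.3, a single animal. CKO.3 stood apart from the others on the second principal component, which held 16.1% of the variance.

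Most oxidative phosphorylation genes differed little between CKO and WT cerebella. Of 87 members 81 were tested, and 6 rose and 2 fell in CKO at the adjusted threshold. These 8 made up 9.88% of the members tested, against 17.8% of all genes tested. Without background correction the shares were 17.3% and 19.3%, with 11 members higher and 3 lower. By direction, 9.15% of all genes tested were called higher and 8.64% lower. The 6 that rose were Cox6b2, Cox6b1, Cycs, Atp5g3, Atp5b and Atp5pb, and the 2 that fell were Ndufb11 and Atp5g2. Under median scaling of the arrays or with an offset of 16 in the background correction, 2 members rose and 2 fell, and the calls were Cox6b2, Cycs, Ndufb11 and Atp5g2 in both cases. At an unadjusted limma p below 0.05, 16 of the 81 tested members were higher and 4 lower. Of all 12912 genes tested, 2034 were higher and 1837 lower at that p. Over the tested members the median log2 change was 0.047, with 52 above and 29 below 0, beside a median of 0.007 over all genes tested. With median scaling the median change of the members was -0.014, with 38 above and 43 below 0, and the median of all genes was -0.006.

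Changes beyond 0.3 on the log2 scale in either direction were seen in 3 of the 81 members, 3.7%, against 13.7% of all genes tested. The groups did not overlap for 16 members, of which 12 were higher and 4 lower in CKO. This is 19.8% of the members tested, near the 21.2% of all genes tested whose groups did not overlap (10.9% higher and 10.2% lower). The median standard error of a member's change was 0.075, against 0.080 over all genes. The members' probes were bright, with a median log2 level of 11.84 beside 7.75 for all genes tested. The 6 members below the filter on brightness were Ndufs1, Uqcrq, Cox4i2, Cox7b2, Cox8c and Atp5k.

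**Figure D1:**
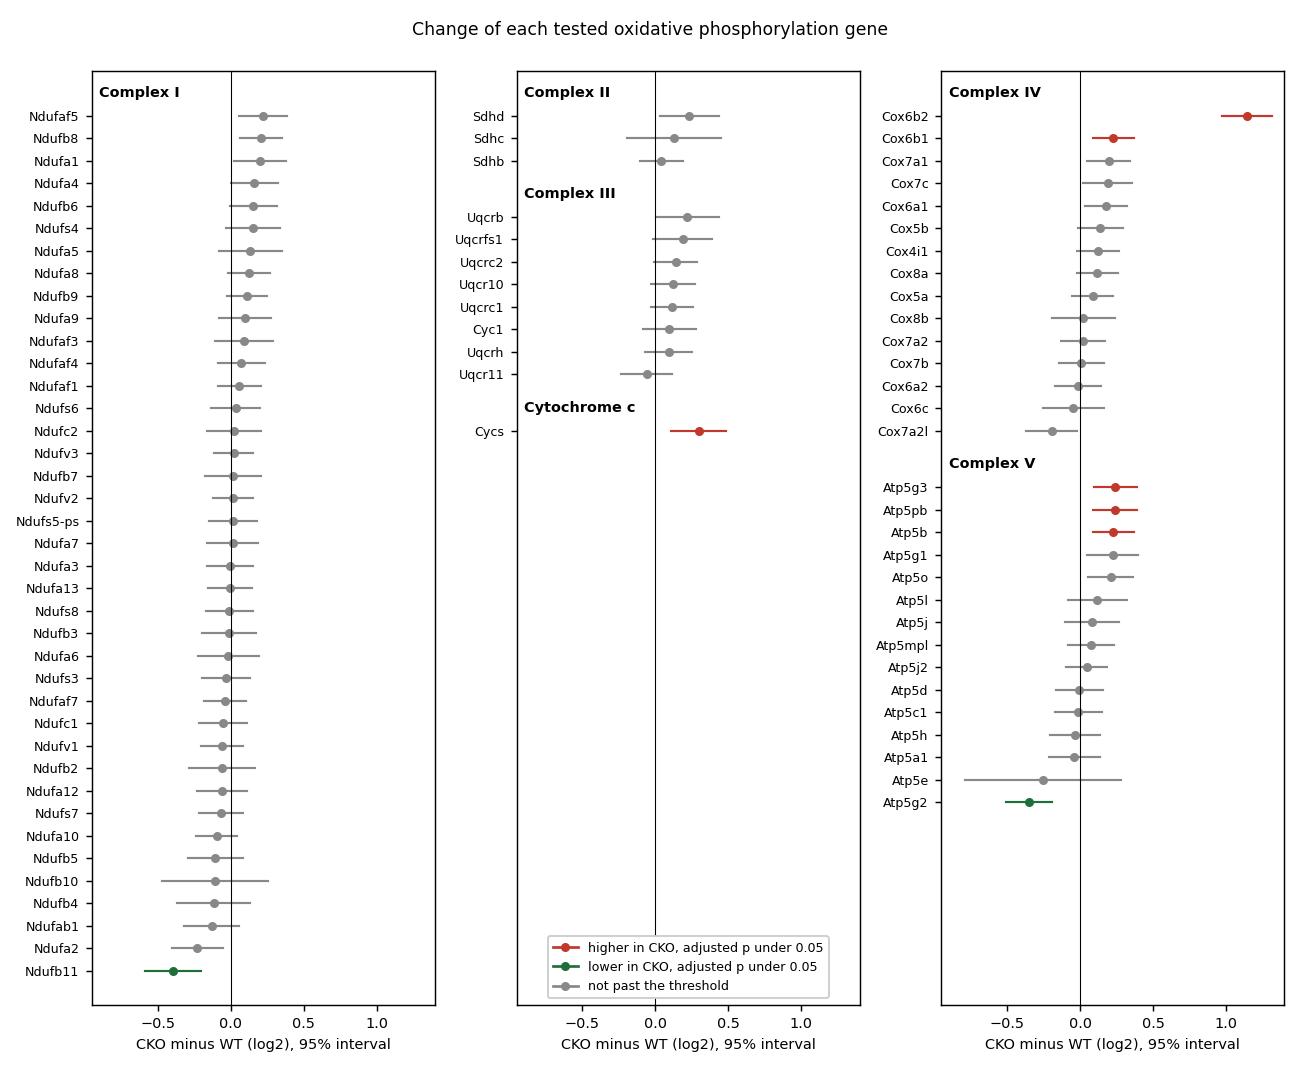
CKO minus WT on the log2 scale for each of the 81 tested members, with 95% intervals from the limma fit, grouped by complex and ordered by size. The point for Cox6b2, at 1.145, lies apart from all other members, which lie between -0.395 and 0.297.

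Complex I, the largest group, had a single call. Of its 40 members 39 were tested, 1 fell, 0 rose, and the median change was 0.013 (20 above and 19 below 0). The 1 call is 2.56% of its tested members, against 17.8% of all genes tested. Over its 39 tested members 3 were higher and 2 lower at an unadjusted limma p below 0.05. Ndufb11, an accessory subunit of the membrane arm whose gene lies on the X chromosome, read 8.03, 7.83, 8.12 and 7.83 on the CKO arrays and 8.25, 8.26, 8.53 and 8.35 on the WT arrays. Every CKO array was below every WT array. The change was -0.395 (SE 0.089, 95% interval -0.59 to -0.20, limma adjusted p = 0.00822). The second Ndufb11 probe was dimmer, at 6.67 in CKO and 6.88 in WT, with a change of -0.22 and overlapping groups (limma adjusted p = 0.227 over all probes). RefSeq places Ndufb11 so that it overlaps Rbm10, whose own probe read 7.53 in CKO and 7.61 in WT (limma adjusted p = 0.584).

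The 13 Ndufa members had a median change of -0.003, and the 12 Ndufb and Ndufc members one of -0.034. Ndufb8, another accessory subunit of the membrane arm, came nearest to a call among the rest of complex I. It read 13.52, 13.56, 13.61 and 13.53 in CKO and 13.40, 13.22, 13.42 and 13.35 in WT. The groups did not overlap, the change was 0.21 (SE 0.068) and the limma adjusted p was 0.052. Ndufa2, an accessory subunit of the hydrophilic arm, was at -0.23 (adjusted p = 0.0687), so that the members nearest to the threshold pointed in both directions. The Ndufv and Ndufs subunits include those that carry the flavin and the iron-sulphur clusters. Of 8 tested, the changes lay between -0.065 and 0.153 on the log2 scale, none was called by limma, and 0 were past an unadjusted p of 0.05. The 95% interval ran from -0.12 to 0.15 for Ndufv3 and likewise for Ndufv2. The 5 Ndufaf genes encode assembly factors and no structural subunits, and 0 of them were called, with changes from -0.038 to 0.219, the highest that of Ndufaf5 (adjusted p = 0.0676). Ndufs5-ps, a pseudogene in the annotation, was at 0.016. Without these 6 genes the count was again 6 higher and 2 lower, of 75 tested.

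Complex II was represented by Sdhb, Sdhc and Sdhd, and 0 of the 3 were called (0 higher and 0 lower by limma, and 1 with an unadjusted p below 0.05). The share called over all genes tested was 17.8%. Sdha was not analysed here. Sdhd, a membrane anchor of the complex, read 9.02, 8.96, 9.21 and 9.04 in CKO and 8.99, 8.98, 8.65 and 8.68 in WT. The groups overlapped, because WT.1 and WT.2 lay at the CKO level, and the change of 0.23 had an adjusted p of 0.108. Sdhc, the other membrane anchor, read 11.71, 11.67, 12.07 and 12.14 in CKO and 11.96, 11.52, 12.13 and 11.47 in WT. Its spread within each group, with SDs of 0.239 and 0.326, was larger than the change of 0.13. Sdhb, the iron-sulphur subunit, read 11.02, 10.94, 11.01 and 11.00 in CKO and 10.97, 10.94, 11.06 and 10.84 in WT, a change of 0.040 with a 95% interval of -0.11 to 0.19.

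No member of complex III was called, and most lay above 0. Of 8 tested, 7 were above 0 and 1 below 0, the median change was 0.118, and 0 were called by limma (1 had an unadjusted p below 0.05). Of all 12912 genes tested, 6742 lay above 0 and 17.8% were called. Uqcrb, a small subunit near the ubiquinone site, read 11.72, 11.78, 12.05 and 11.83 in CKO and 11.81, 11.50, 11.77 and 11.43 in WT. Its groups overlapped, and the change of 0.22 had an adjusted p of 0.166. Uqcrc2, a core subunit, read 12.64, 12.68, 12.62 and 12.68 in CKO and 12.56, 12.55, 12.59 and 12.37 in WT, without overlap but with a change of only 0.14 (adjusted p = 0.205). Uqcrfs1, the Rieske iron-sulphur protein, was at 0.19 (adjusted p = 0.207) and Cyc1, cytochrome c1, at 0.093 (adjusted p = 0.515). The median of complex III was 0.055 with median scaling and -0.022, on the other side of 0, with the Xist level as a covariate.

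Cycs, the soluble cytochrome c that carries electrons to complex IV and that activates caspases when released into the cytosol, rose. It read 7.83, 7.92, 7.94 and 8.11 in CKO and 7.64, 7.69, 7.82 and 7.47 in WT. All CKO arrays lay above all WT arrays, although WT.3 lay just below the lowest CKO array. The change was 0.30 (SE 0.086, 95% interval 0.11 to 0.48, limma adjusted p = 0.0307). The second Cycs probe read 7.28 in CKO and 7.27 in WT (adjusted p = 0.908 over all probes), and with the mean of both probes the change was 0.157 (adjusted p = 0.117). With the Xist level as a covariate it was 0.146 (adjusted p = 0.565). The call was also lost with the replicate number as a block (adjusted p = 0.0571) and without WT.1, WT.2, WT.4, CKO.2 or CKO.4.

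Complex IV held the largest change of any member. Of 18 members 15 were tested, and 2 rose and 0 fell, or 13.3% against 17.8% of all genes tested. The median was 0.119 on the log2 scale (12 above and 3 below 0), which was 0.025 with median scaling. Cox6b2 encodes the isoform of subunit 6B that in mammals is known from testis, and Cox6b1 the isoform found in all tissues. Cox6b2 read 8.23, 8.11, 8.28 and 8.29 on the CKO arrays and 7.25, 6.94, 7.07 and 7.08 on the WT arrays. The raw intensities behind these were 327.4, 267.4, 327.0 and 292.6 in CKO and 174.4, 140.0, 141.9 and 145.8 in WT. The gap between the groups was several times the spread within either, with SDs of 0.0805 and 0.129. The change was 1.145 on the log2 scale, or 2.21-fold (SE 0.078, 95% interval 0.98 to 1.31, limma adjusted p = 3.36e-06). An exact two-sided permutation test of the array values gave p = 0.0286, the smallest that the 70 assignments of 4 and 4 arrays allow.

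The rise of Cox6b2 rested on one of its probes. The second probe was dim, at 6.53, 6.44, 6.80 and 6.79 in CKO and 6.595, 6.794, 7.004 and 6.478 in WT, near the median of all probes at 6.84. Here CKO and WT overlapped, and the change was -0.077 (limma adjusted p = 0.726 over all probes). With the mean of both probes Cox6b2 changed by 0.534 (adjusted p = 0.00103). Probe sequences were not used here, so it is not known which transcripts each probe reads. Without WT.3 and CKO.3 the change was 1.123, and with the Xist level as a covariate 1.168 (adjusted p = 0.00187).

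Cox6b1 rose by less, with 13.75, 13.69, 13.82 and 13.74 in CKO and 13.58, 13.46, 13.56 and 13.48 in WT. CKO and WT did not overlap, and the change was 0.23 (SE 0.065, limma adjusted p = 0.0266). The second Cox6b1 probe was at 0.13 (adjusted p = 0.272 over all probes), and with median scaling the change was 0.103 (adjusted p = 0.439). Without WT.3 and CKO.3 Cox6b1 was at 0.22 and no longer called (adjusted p = 0.059). The log2 ratio of the Cox6b2 to the Cox6b1 probe was higher by 0.915 in CKO than in WT, with SDs of 0.0503 and 0.0868 over the arrays.

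The promoter windows of this pair are shown because the isoforms moved by different amounts. They are RefSeq windows of GRCm38.p6, from 250 bases before to 50 after the start, at chr7:4753045-4753344, minus strand, and chr7:30626065-30626364, minus strand. Capitals mark matches, on either strand, to 4 motifs: the NRF1 motif, whose letters appear in capitals in the Atp5g windows further on, CCGGAAG for GABPA and related ETS factors, AAGATGGC for YY1 and GGGCGG for SP1. No matches overlap in the windows shown. A match is a description of the letters and not a site.
Cox6b2: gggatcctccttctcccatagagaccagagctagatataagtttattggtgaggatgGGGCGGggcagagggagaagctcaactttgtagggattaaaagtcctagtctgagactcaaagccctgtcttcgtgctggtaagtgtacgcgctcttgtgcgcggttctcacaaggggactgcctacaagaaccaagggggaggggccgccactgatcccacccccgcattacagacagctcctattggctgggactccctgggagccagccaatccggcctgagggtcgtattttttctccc
Cox6b1: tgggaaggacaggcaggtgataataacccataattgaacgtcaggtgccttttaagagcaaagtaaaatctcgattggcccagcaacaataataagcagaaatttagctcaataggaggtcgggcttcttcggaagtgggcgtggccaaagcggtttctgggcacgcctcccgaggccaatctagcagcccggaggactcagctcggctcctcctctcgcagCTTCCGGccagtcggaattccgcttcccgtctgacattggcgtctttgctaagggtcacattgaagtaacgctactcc
Cox6b2 held 1 SP1 match, and Cox6b1 held 1 GABPA match, both before the start.

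The other tissue-specific isoforms of complex IV lay below 7.75, the median level of all genes tested, and none of them was called. Cox7a1, the isoform of heart and skeletal muscle, read 7.52, 7.55, 7.66 and 7.54 in CKO and 7.45, 7.41, 7.26 and 7.36 in WT. The groups did not overlap, and the change of 0.20 had an adjusted p of 0.0671. Its broadly expressed counterpart Cox7a2 was at 0.021 (95% interval -0.13 to 0.17). Cox6a2 and Cox8b, also muscle isoforms, averaged 6.31 in CKO and 6.32 in WT and 6.43 in CKO and 6.40 in WT, both near the filter. Of 7 muscle markers on the array 5 were tested, and Acta1 was higher and Mylpf lower in CKO. The summed raw intensity of the 5 was 644.9 to 757.2 in CKO and 667.3 to 721.8 in WT, and the part of muscle RNA in the Cox7a1 values was not tested. Cox4i2, the lung isoform, and Cox8c, a testis isoform, were below the filter.

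Apart from Cox6b1, none of the broadly expressed subunits of complex IV was called. Cox4i1, the regulatory subunit that binds ATP, read 14.13, 14.06, 14.19 and 14.24 in CKO and 13.99, 14.004, 14.09 and 14.04 in WT, a change of 0.12 (adjusted p = 0.248). Cox6a1 read 13.57, 13.66, 13.67 and 13.65 in CKO and 13.41, 13.38, 13.55 and 13.50 in WT, without overlap (change 0.175, adjusted p = 0.0905). Cox8a was likewise without overlap, at 13.67 to 13.72 in CKO and 13.48 to 13.65 in WT (change 0.12, adjusted p = 0.239). Cox7a2l, which joins complexes III and IV into supercomplexes, was the lowest of the group. It read 11.77, 11.75, 11.67 and 11.46 in CKO and 11.85, 11.78, 11.96 and 11.86 in WT, without overlap (change -0.195, adjusted p = 0.117). Ndufa4, named for complex I and now placed in complex IV, read 14.02, 13.95, 13.99 and 13.99 in CKO and 13.79, 13.72, 14.02 and 13.79 in WT. WT.3 alone among the WT arrays was at the CKO level, the change was 0.16 (adjusted p = 0.171), and without WT.3 it rose by 0.227 (adjusted p = 0.0383).

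**Figure D2:**
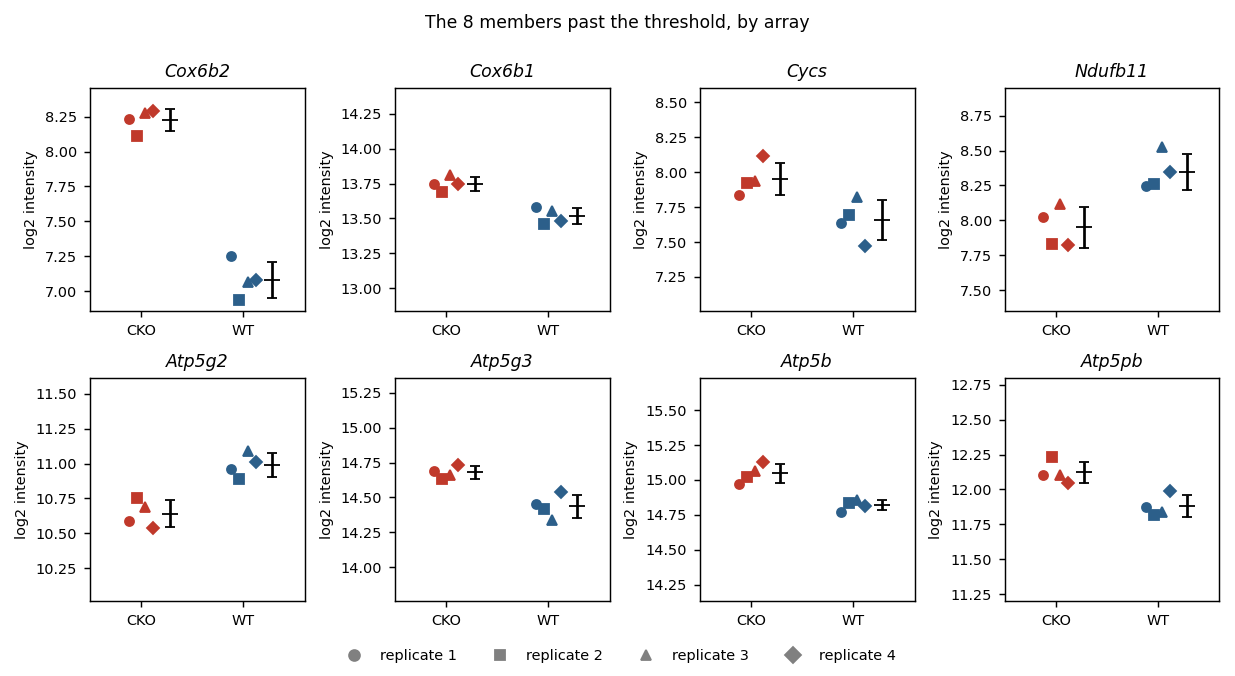
Log2 intensity of the 8 called members on each array, CKO to the left of WT, with a marker shape per replicate number and the mean ± SD (n = 4) beside the points. Each panel spans the same range of 1.6 on the log2 scale. CKO and WT do not overlap in any of the 8 panels, and the gap is widest for Cox6b2.

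In complex V 15 members were tested, of which 3 rose and 1 fell. The median log2 change was 0.076 (9 above and 6 below 0), which was -0.014 with median scaling. The 4 calls are 26.7% of its tested members, against 17.8% of all genes tested. With median scaling, offset 16, the Xist covariate or without WT.2, 1 of the 15 was called. The c subunit, whose ring turns with the proton flow, is encoded by Atp5g1, Atp5g2 and Atp5g3, which give the same mature protein with different import sequences. Atp5g2 read 10.59, 10.75, 10.69 and 10.54 in CKO and 10.96, 10.89, 11.09 and 11.01 in WT. Every CKO array lay below every WT array, and the change was -0.35 (SE 0.073, 95% interval -0.51 to -0.19, limma adjusted p = 0.00571). Atp5g3 read 14.69, 14.63, 14.66 and 14.73 in CKO and 14.45, 14.42, 14.34 and 14.54 in WT. Here every CKO array lay above every WT array, and the change was 0.24 (SE 0.067, limma adjusted p = 0.0245). Atp5g1 read 12.83, 12.98, 12.86 and 12.91 in CKO and 12.64, 12.52, 12.87 and 12.65 in WT. WT.3 overlapped with the CKO arrays and the change of 0.22 had an adjusted p of 0.0735.

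The log2 ratio of the Atp5g2 to the Atp5g3 probe was lower by 0.59 in CKO than in WT (-0.591, SDs 0.140 and 0.136), and that of Atp5g2 to Atp5g1 by 0.57 (-0.572, SDs 0.0844 and 0.0674). The groups did not overlap for either ratio. That of Atp5g1 to Atp5g3 differed by -0.019. With median scaling Atp5g2 was at -0.376 (adjusted p = 0.00279), whereas Atp5g3 was at 0.017 (adjusted p = 0.918). Without WT.3 and CKO.3 Atp5g3 was at 0.214 and no longer called (adjusted p = 0.0676), and without WT.3 alone at 0.209 (adjusted p = 0.0622). The c subunit genes give the same mature protein, and cross-hybridization between their transcripts was not tested.

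The windows of the called c subunit genes, on the same build, lie at chr15:102670998-102671297, minus strand, and chr2:73911277-73911576, minus strand. They are shown because the genes moved in opposite directions, with capitals for the same 4 motifs.
Atp5g2: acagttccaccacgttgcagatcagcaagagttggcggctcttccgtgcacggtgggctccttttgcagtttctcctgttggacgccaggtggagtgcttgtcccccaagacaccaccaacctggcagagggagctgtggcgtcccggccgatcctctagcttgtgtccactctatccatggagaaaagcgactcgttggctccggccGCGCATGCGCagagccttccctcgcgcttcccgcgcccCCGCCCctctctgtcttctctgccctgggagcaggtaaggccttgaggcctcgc
Atp5g3: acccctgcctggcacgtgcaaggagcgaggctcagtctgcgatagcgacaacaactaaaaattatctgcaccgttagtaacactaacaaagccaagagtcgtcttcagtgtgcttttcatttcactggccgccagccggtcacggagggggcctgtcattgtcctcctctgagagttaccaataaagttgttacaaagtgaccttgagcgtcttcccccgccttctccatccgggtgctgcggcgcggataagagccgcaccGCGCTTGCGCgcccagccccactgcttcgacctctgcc
Both windows held 1 NRF1 match, that of Atp5g2 before the start and that of Atp5g3 after it, and Atp5g2 also held 1 SP1 match across the start.

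Over all members, RefSeq windows were found for 71 genes. NRF1 matches stood in 22.4% of the 76 windows of members and in 4.6% of all 32851 windows. The shares were 22.4% and 8.86% for GABPA, 13.2% and 2.75% for YY1 and 44.7% and 35.7% for SP1. All windows served as the background, without matching to the members for base content or expression level. The 15 tested members with an NRF1 match had a median log2 change of 0.115, and the 54 without one a median of 0.022. For the other 3 motifs the medians lay in the same order. With and without a match they were 0.07 and 0.023 for GABPA, 0.064 and 0.023 for YY1, and 0.048 and 0.034 for SP1. These differences were not tested.

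Atp5b, the catalytic beta subunit, read 14.97, 15.02, 15.07 and 15.13 in CKO and 14.77, 14.83, 14.85 and 14.81 in WT. Every CKO value was the higher, and the change was 0.23 (SE 0.064, limma adjusted p = 0.0263). Atp5pb, subunit b of the peripheral stalk, read 12.11, 12.23, 12.11 and 12.05 in CKO and 11.87, 11.82, 11.84 and 11.99 in WT. No WT array reached the lowest CKO array, and the change was 0.24 (SE 0.070, limma adjusted p = 0.0300). Both calls were lost with median scaling, at 0.052 for Atp5b (adjusted p = 0.701) and 0.189 for Atp5pb (adjusted p = 0.0911). Without WT.3 and CKO.3 Atp5b was at 0.235 (adjusted p = 0.0495), and Atp5pb was at 0.233 and no longer called (adjusted p = 0.0718). Atp5o, which joins the stalk to the catalytic head, was at 0.21 (adjusted p = 0.0618). Of the other subunits of the head, 0 were called by limma (0 with an unadjusted p below 0.05), with Atp5a1 (alpha) at -0.040, Atp5c1 (gamma) at -0.012 and Atp5d (delta) at -0.0040, each with a 95% interval within -0.22 and 0.16. Atp5e (epsilon) had the widest interval of any member, -0.79 to 0.28.

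**Figure D3:**
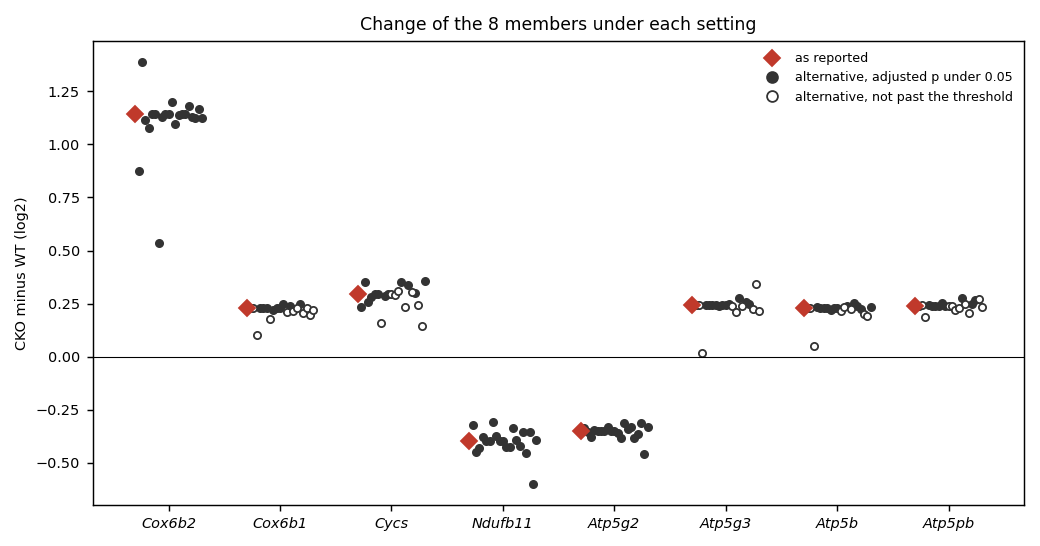
CKO minus WT on the log2 scale for the 8 called members, as reported (diamonds) and under each of 20 alternatives (circles, filled where the adjusted p was below 0.05). Cox6b2, Ndufb11 and Atp5g2 kept their call under all 20, while the other 5 members lost it under 7 to 10.

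Among the 3 X-linked members Ndufb11 fell and the other two were not called. Ndufa1, which anchors the membrane arm, read 12.88, 12.70, 12.91 and 12.82 in CKO and 12.66, 12.59, 12.80 and 12.47 in WT, a change of 0.20 with overlap (adjusted p = 0.116). Cox7b was near the filter, at 6.47, 6.37, 6.43 and 6.54 in CKO and 6.32, 6.45, 6.55 and 6.45 in WT. With the Xist level as a covariate, the change of Ndufb11 was -0.598 (adjusted p = 0.0246).

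Among the WT animals one stood out in the level of these genes. The median deviation of all 81 tested members from the 8-array mean was 0.021, 0.023, 0.080 and 0.035 on the CKO arrays and -0.029, -0.053, 0.061 and -0.077 on the WT arrays, so that WT.3 lay among the CKO arrays. Within WT, 53 of the 81 members were brightest on WT.3, the array with dim Xist, and 32 were brightest there among all 8 arrays. For complex I the median deviation was 0.115 on WT.3, above all 4 CKO arrays (-0.013 to 0.080), and for complex IV it was 0.001 on WT.3, below all 4 CKO arrays (0.035 to 0.089). Over all genes the array medians stayed between -0.007 and 0.009. Without WT.3 the median change of the members was 0.077, with 62 above and 19 below 0, and 7 members rose and 2 fell, with 14.2% of all genes called. Without WT.3 and CKO.3 the median was 0.070, with 59 above and 22 below 0, and again 7 rose and 2 fell. These were 11.1% of the tested members, against 18% of all genes called in that fit. With the Xist level as a covariate the median was -0.021, with 35 above and 46 below 0, and 1 rose and 2 fell, with 6.14% of all genes called. Since WT.3 is the only WT array with dim Xist, sex and the other features of that animal cannot be told apart.

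**Figure D4:**
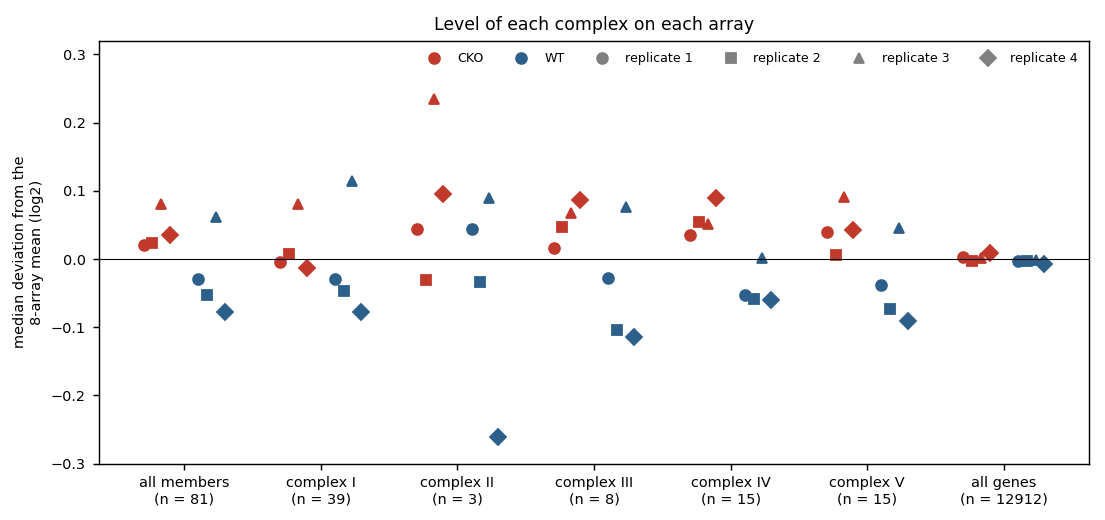
Median deviation of the tested members of each complex from their 8-array means (log2), for each array, CKO to the left of WT, with all genes tested at the right. WT.3 (blue triangles) lies above the other WT arrays in every complex, and the all-gene medians lie at 0.

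All 8 tested markers of granule cell progenitors fell, with a median of -1.08 (log2), and all 4 tested markers of Purkinje cells rose, with a median of 0.77. Of 7 markers of microglia 6 rose, and of 5 tested markers of astroglia 0 were called by limma (0 with an unadjusted p below 0.05). The summed raw intensity was 11052.9 to 15825.6 in CKO and 20622.3 to 27871.5 in WT for the granule cell progenitor markers, and 9858.6 to 11806.4 in CKO and 6840.1 to 7603.8 in WT for the Purkinje cell markers. For the microglial markers it was 1412.4 to 1901.3 in CKO and 1260 to 1339.6 in WT. Among 6 choroid plexus markers Otx2 and Ttr fell and the other 4 were not called, with a median of -0.03. Clic6 (6.75 in CKO and 6.48 in WT) and Kcne2 (6.67 in CKO and 6.49 in WT) lay in the other direction. The summed raw intensity of the 6 was 770.9 to 1337.3 in CKO and 2316.5 to 2858.7 in WT, and Otx2 alone read 252.4 to 593.2 in CKO and 1471.8 to 2032.2 in WT. The part of these shifts in the changes of the members was not tested.

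Of the 67 tested genes that build, regulate or feed the respiratory chain, 8 were called, beside 2297 of all 12912 genes tested (17.8%). With median scaling 4 of these 8 calls were kept and with the Xist covariate 2 of the 8. Of 33 assembly factors outside the member list 2 rose and 0 fell, or 6.06% against 17.8% of all genes tested, and the median was 0.074 on the log2 scale. Ttc19, which serves complex III, averaged 10.53 in CKO and 10.25 in WT (0.27, adjusted p = 0.0249), and Sdhaf2, which helps to attach the flavin of complex II, 9.17 in CKO and 8.94 in WT (0.23, adjusted p = 0.0335). In the tricarboxylic acid cycle and pyruvate dehydrogenase 3 of 15 tested genes rose and 1 fell, or 26.7% against the same 17.8%, with a median of 0.098. Dlat, the acetyltransferase of pyruvate dehydrogenase, rose by 0.35 (adjusted p = 0.0200) and Idh3a, a subunit of isocitrate dehydrogenase, by 0.345 (adjusted p = 0.00813). The third was Cs, citrate synthase, at 11.50 in CKO and 11.23 in WT (adjusted p = 0.0102). Suclg2, the subunit of succinyl-CoA ligase that makes GTP, fell by 0.47 (adjusted p = 0.00961). For Dlat and Suclg2 the groups overlapped by 1 array.

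Of 12 tested regulators of mitochondrial gene expression 0 rose and 1 fell, or 8.33% against 17.8% of all genes tested. Nrf1, the nuclear respiratory factor whose motif is named above, read 9.77, 9.73, 9.70 and 9.63 in CKO and 10.04, 10.17, 10.21 and 10.17 in WT. Every CKO array lay below every WT array, and the change was -0.44 (SE 0.067, limma adjusted p = 8.03e-04). The factor Tfam, which packs and transcribes mitochondrial DNA, was at -0.21 (adjusted p = 0.0706), the coactivator Ppargc1a at 0.090 (adjusted p = 0.675) and Gabpa at -0.082 (adjusted p = 0.608). Among 7 carriers and channels 1 rose, the brain mitochondrial carrier Slc25a14 (9.35 in CKO and 9.07 in WT, adjusted p = 0.0252), and 0 fell. The share called was 14.3% of the 7, against 17.8% of all genes tested. The subunits encoded by mitochondrial DNA were not analysed here.

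**Figure D5:**
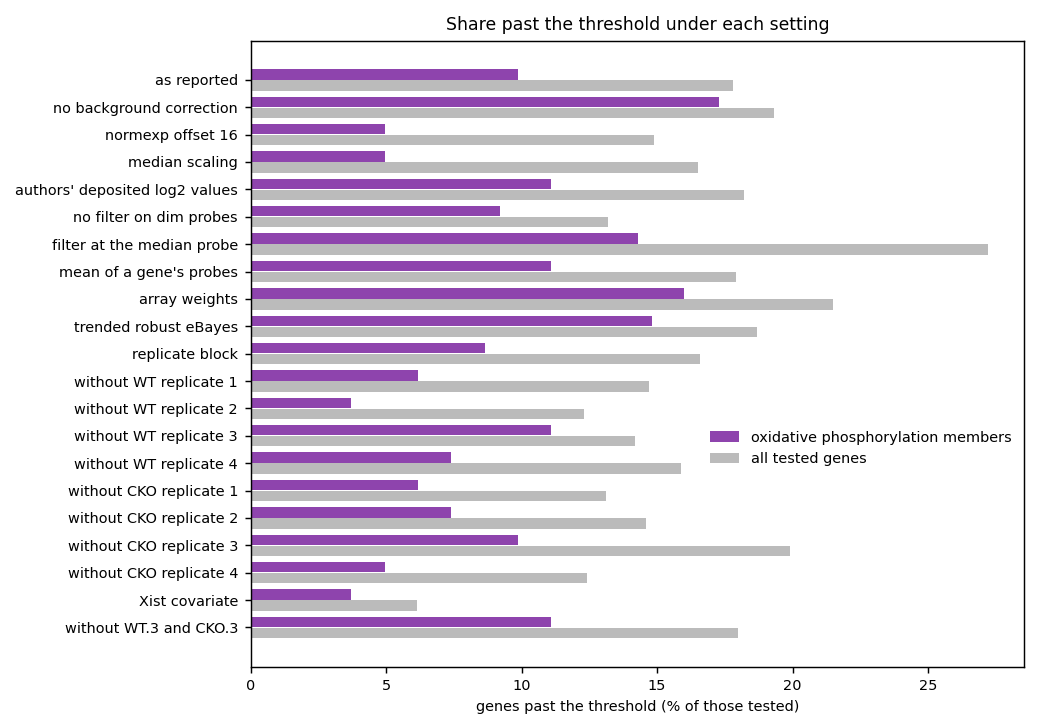
Share of genes past the adjusted threshold, in percent of those tested, for the oxidative phosphorylation members and for all tested genes, as reported and under each alternative. As reported the shares are 9.88% and 17.8%, and the members' bar is the shorter one under every setting drawn.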

How the data were processed

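The deposited table used here gives each probe's intensity on each array on a linear scale, as exported with BeadStudio per the submitters' processing notes. The sources used here do not name its background handling. A second deposited table holds log2 values, which the authors had quantile-normalized as judged from the values (within 0.014 of log2 quantile-normalized intensities). The annotation named 23978 of 25697 probes with 1 symbol, 1719 with none and 0 with several.

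Intensities were corrected with normexp (offset 50), quantile-normalized and fitted in limma 3.58.1 (R 4.3.3), genotype only, two-sided, on genes represented by their brightest probe and above the lower quartile (25%) of probe means, 12912 in all. Fold changes of dim probes are understated by the offset. The fit was also run on simulated data, with planted changes larger than those of all called members except Cox6b2. That run does not show how well smaller changes are found. With 4 arrays per group their number limits precision.

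The members, lists and alternatives were chosen with earlier results of these data known. Named were all called members, per-complex members of smallest p, X-linked members, isoform groups, complex II, and up to 3 called genes of each related list. Chip names and detection p-values were not used. Same-numbered arrays of the groups were not treated as pairs. Promoter windows are from RefSeq (GRCm38.p6), motifs were matched by exact letters, and figures used matplotlib 3.10.9.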

Additional observations from a re-analysis of the deposited data

Results flagged for a closer look

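Among the 70 groups of 4 arrays formed by the named genes, 4 held an array whose gap to its nearest neighbour, as a share of the group's range, was above the critical value of Dixon's test at the 95% level. Chance flags about 1 in 20 such groups. In Cox4i2, WT.3 read 6.24 (6.235) while the other WT arrays read 6.08 to 6.09, a share of 0.913. In Cox8c, CKO.2 read 6.19 while the other CKO arrays read 5.94 to 5.96 (0.886). In Cox6a2, CKO.3 read 6.17 while the other CKO arrays read 6.34 to 6.37 (0.875). In Cox7a1, CKO.3 read 7.66 while the other CKO arrays read 7.52 to 7.55 (0.836). All 4 are tissue-specific isoforms of complex IV below the median level of all genes tested, and 2 of them, Cox4i2 and Cox8c, were below the filter.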

How the results depend on the processing

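Of the 8 called members, Cox6b2 (0.534 to 1.389), Ndufb11 (-0.598 to -0.306) and Atp5g2 (-0.457 to -0.314) kept their call under all 20 alternatives, that without WT.3 and CKO.3 being added after seeing the data. Cox6b1 kept it under 10, Atp5pb under 10, Cycs under 12, Atp5g3 under 12 and Atp5b under 13. No called member changed sign. Over the other named members and all alternatives, including the exact permutation test without adjustment, a call was gained 23 times and none was reversed. Without background correction 14 members were called (11 higher; complex I 4, related genes 14). With array weights 13 were called (10 higher, complex I 4). With offset 16 or with median scaling 4 were called (2 higher, complex IV 1, complex V 1). With the Xist covariate 3 were called (1 higher, complex IV 1, complex V 1, related genes 3). Complex I had 2 calls with the authors' log2 values, the median-probe filter, the mean of probes or the replicate block, and 3 with trended robust moderation or without WT.3 and CKO.3, where complex IV had 1. Medians with median scaling were -0.014 (members), 0.055 (complex III), 0.025 (IV) and -0.014 (V), and with the Xist covariate -0.021 (members), -0.079 (I), -0.066 (II), -0.022 (III), 0.064 (IV) and -0.010 (V). Complex IV was at 0.080 without a filter. Leaving out 1 array at a time gave 3 (without WT.2) to 9 (without WT.3) called members, 1 to 7 of them higher, 1 to 2 in complex I, 1 to 2 in complex IV, 1 to 4 in complex V and 4 to 13 related genes, with medians of 0.090 to 0.142 in complex IV and 0.028 to 0.108 in complex V. Called members were 4 without CKO.4 and 5 without WT.1 or CKO.1. Cycs was at 0.157 with the mean of probes (adjusted p = 0.117), 0.297 with the replicate block (adjusted p = 0.0571), 0.146 with the Xist covariate (adjusted p = 0.565) and 0.236 to 0.352 without 1 array. Same-numbered arrays had correlations of -0.047 to 0.149 between their deviations, and the replicate block called 7 members. The cause of these shifts was not tested. Dim probes, such as those of the muscle isoforms, limit what can be seen.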

Other observations

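On the gene order of RefSeq, Fam71e2 lies 132 bases from Cox6b2, on the side of its start, since Cox6b2 is on the minus strand. The window shown for Cox6b2 reaches 250 bases before the start, further than this gap. Fam71e2 was dim and level (6.30 in CKO and 6.32 in WT, limma adjusted p = 0.938). On the other side of Cox6b2 lies Kmt5c, a histone methyltransferase, which averaged 9.93 in CKO and 10.23 in WT (-0.30, limma adjusted p = 0.0171). Next to Cycs, 4921507P07Rik averaged 7.86 in CKO and 7.49 in WT (0.365, adjusted p = 0.0154). Of the other neighbours of called members that were on the array, none was called. Neighbours were looked up after the values of the members had been seen.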
